A study of Mus musculus with 6 samples.

Results

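Neural crest cells leave the dorsal neural tube and give rise, among other cells, to the Schwann cells and satellite glia of peripheral nerves and ganglia. The genes described here are 8 genes that mark migrating crest cells and the Schwann cell precursors they become: *Sox10*, *Foxd3*, *Ets1*, *Tfap2b*, *Erbb3*, *Ngfr*, *Fabp7* and *S100b*. They were chosen by name and not by a rule on their values, but with earlier results of these data known. Each had 1 entry among the 38553 genes of the deposited expression table.

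RNA-Seq was performed on craniofacial tissue dissected from E12.5 mouse embryos, with 3 control and 3 *Rbfox2* mutant samples. *Rbfox2* encodes an RNA-binding protein that regulates alternative splicing. The controls were *Rbfox2* flox/flox embryos without Cre, and the mutants were Pax3Cre/+:*Rbfox2* flox/flox embryos. With these genotypes both groups carried the floxed alleles, and only the mutants carried Cre. For the study as a whole, the paper also lists *Rbfox2* flox/+ and Pax3Cre/+:*Rbfox2* flox/+ embryos among its controls. Its account of the RNA-Seq does not name the genotype of the controls. Cre was knocked into the *Pax3* locus, so an effect of the altered *Pax3* allele and an effect of the *Rbfox2* deletion cannot be told apart. *Pax3* is transcribed in the dorsal neural tube, crest cells and somites, and the dissected tissue also held cells that do not descend from them. In such bulk samples fewer cells of a type and less RNA per cell cannot be told apart.

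In crest cells, SOX10 keeps cells able to become glia and switches on *Erbb3*. The ERBB3 receptor binds neuregulin, a signal from axons, and passes it on with its partner ERBB2, and Schwann cell precursors depend on this signal to survive. FOXD3, ETS1 and TFAP2B are transcription factors of crest cells, NGFR is the low-affinity neurotrophin receptor, and FABP7 and S100B are a fatty acid-binding and a calcium-binding protein of glia. *Fabp7* is also strong in radial glia of the embryonic brain, *S100b* in cartilage cells, *Ets1* in endothelium and *Ngfr* in sensory neurons and mesenchyme.

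The unit of the values was FPKM, fragments mapped to a gene scaled by gene length and by all mapped fragments of the sample. FPKM keeps no read counts, so the depth behind single values is unknown. The values of a sample summed to between 528123 and 590174. *Rbfox2* checked the labels. It was 58.4, 65.0 and 61.3 FPKM in controls 1, 2 and 3 and 38.1, 36.3 and 34.3 in mutants 1, 2 and 3, so that the mutant mean was 58.8% of the control mean and every mutant lay under every control (exact two-sided permutation p = 0.10, the smallest that 3 samples against 3 can give). Samples differed beyond genotype in 2 ways. The first replicate of each group stood apart from the other 4 samples along the main axis of variance, which held 54.7% of it. The summed FPKM of 4 Y-linked genes was 57.7 in mutant 1 and 55.5 in mutant 2, and between 0.0989 and 0.217 in the other 4 samples.

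Because RBFOX2 binds RNA at the sequence TGCATG (written as DNA), the longest protein-coding transcript of each gene was searched for it, to show where a binding sequence stands in the mature RNA of these genes. Among the 8 transcripts, 27873 bases in all, only *Ets1* held the sequence, at 3 places, whereas 55.3% of the transcripts of 15341 tested genes held at least 1. This is 0.108 places per kilobase in the 8 genes and 0.285 in all, and *Sox10*, *Erbb3*, *Foxd3*, *Fabp7*, *S100b*, *Ngfr* and *Tfap2b* held none. Introns, where sequences that control splicing often lie, were not searched. All 3 places are in the 3′ UTR of *Ets1* transcript ENSMUST00000034534 on the plus strand (GENCODE, GRCm38), at chr9:32755473-32755478, chr9:32755509-32755514 and chr9:32757258-32757263. They are printed 5′ to 3′ with 12 bases on each side and the searched letters in capitals, and a match is not evidence of binding.
Ets1 place 1: ataaaagccgttTGCATGggcattaccccg
Ets1 place 2: ttaaggcctcaaTGCATGccattccaaact
Ets1 place 3: ctagccatgctgTGCATGcggccttctctg

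The 8 genes covered a wide span of expression. Since FPKM is per length, levels can be ordered between genes. *Fabp7* was highest in all 6 samples, and its mean was 11.3 times that of *Ngfr*. *Ngfr* in turn lay 1.69 times above *Ets1*, and its lowest sample (17.96 FPKM) was above the highest of *Ets1* (13.5). *Ets1*, *Tfap2b*, *Sox10* and *Erbb3* formed a middle group whose neighbours overlapped over the samples. The mean of *Ets1* was 1.001 times that of *Tfap2b*, *Tfap2b* was above *Sox10* in 5 of 6 samples (ratio of means 1.18), and *Sox10* was above *Erbb3* in 5 of 6 samples (1.21). *Foxd3* and *S100b* were low. *Erbb3* was 6.17 times *Foxd3* with no overlap, whereas *Foxd3* and *S100b* overlapped and *Foxd3* was the higher in 4 of 6 samples. This order describes whole tissue and not a cell type.

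None of the 8 genes passed the test between mutant and control embryos, and in each the values of the groups overlapped. The log2 fold change of the mutants over the controls was negative for 6 genes and positive for *Sox10* and *Fabp7*, its median over the 8 was -0.12, and the largest in size was 0.24, for *Fabp7* (with a pseudocount of 0.1 in place of 1, *Foxd3* was larger in size, at -0.38). The test was limma on log2(FPKM + 1), so that fold changes of the low genes are understated. Of the 8 genes, 6 had FPKM over 5 in all samples of a group and were tested among 10061 such genes, and *Foxd3* and *S100b* were tested among 17826 genes with a mean FPKM over 0.1. No gene of the 6 had an unadjusted p under 0.05, against 1.66% of the 10061 genes. None had an adjusted p under 0.05, against 0.00%. The deleted gene *Rbfox2* did not pass the adjusted threshold either. Its adjusted p by limma was 0.14, the smallest of the 10061 genes. Groups that did not overlap were seen in 0 of the 6, against 5.0% of the 10061. For *Foxd3* and *S100b* the same 3 counts were 0, against 2.49%, 0.00% and 6.55% of the 17826 genes. The adjusted p by limma was 1.0 for all 8.

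**Figure D1:**
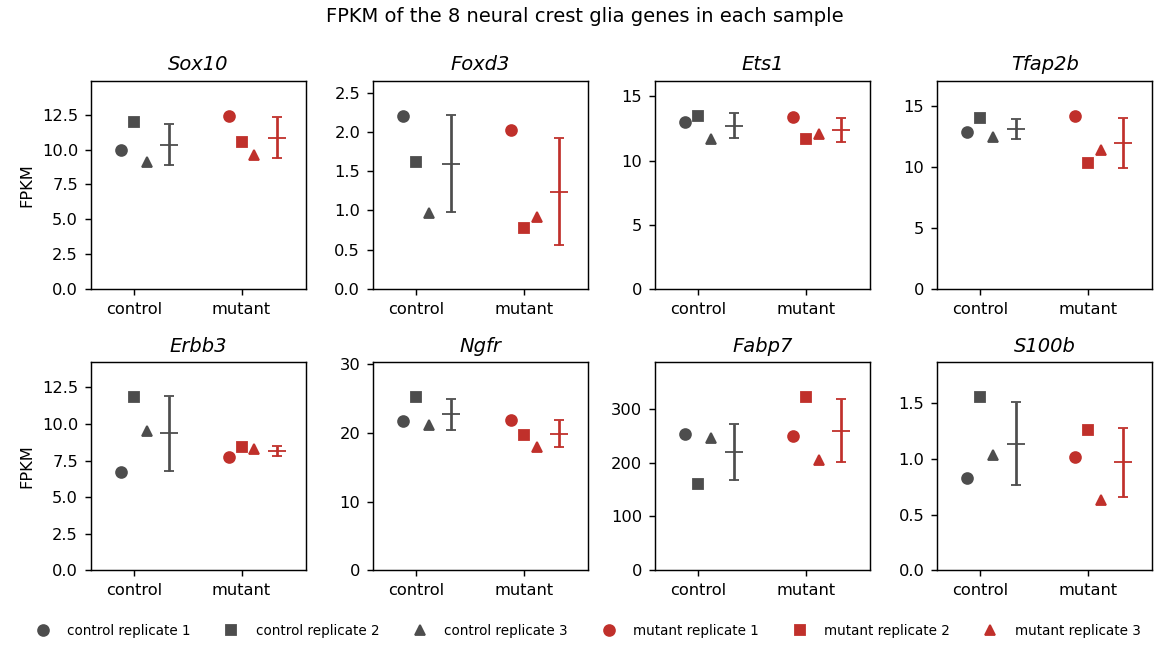
FPKM of each gene (vertical axis, from 0, scaled for each gene) in the 3 control (grey) and 3 mutant (red) samples, with symbols for replicate numbers and the mean and SD beside them. In every panel the symbols of the groups overlap, and the means of *Ets1* are 12.7 in controls and 12.4 in mutants.

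Of the transcription factors, *Sox10* (ENSMUSG00000033006, chr15:79154908-79165240, minus strand) is the gene most tied to crest glia. It was 9.999, 11.96 and 9.115 FPKM in controls 1, 2 and 3 and 12.44, 10.57 and 9.610 in mutants 1, 2 and 3. Mutant 1 was the highest sample and control 3 the lowest, and the groups overlapped. Controls averaged 10.4 ± 1.46 and mutants 10.9 ± 1.44 (SD, n = 3 each). Limma gave a log2 fold change of 0.06 (SE 0.13, 95% interval -0.24 to 0.37), and the exact permutation p was 0.60. On the linear scale of FPKM + 1, this interval spans 0.849 to 1.29 times the control level.

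*Foxd3* (ENSMUSG00000067261, chr4:99656299-99658622, plus strand), an early crest regulator that is later kept in glial precursors, overlaps a miRNA gene on the same strand, so a share of its fragments may be assigned either way. It was 2.21, 1.62 and 0.963 FPKM in controls and 2.02, 0.778 and 0.918 in mutants. The first replicates were the highest of their groups, with a mean 1.98 times that of the other 4 samples. The log2 fold change was -0.23 (SE 0.25, 95% interval -0.81 to 0.36) and the exact permutation p 0.50. *Foxd3* had the largest coefficient of variation over the 6 samples, 43.4%, and its interval was the widest of the 8.

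*Ets1* (ENSMUSG00000032035, chr9:32636221-32757820, plus strand), which acts in cranial crest cells and is overlapped by an antisense gene, varied least. It was 13.02, 13.50 and 11.67 FPKM in controls and 13.40, 11.67 and 12.05 in mutants, a coefficient of variation of 6.82%. The mutant mean was 97.2% of the control mean, with a log2 fold change of -0.04 (SE 0.09, 95% interval -0.25 to 0.18) and an exact permutation p of 0.80. *Ets1* thus had the narrowest interval of the 8.

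*Tfap2b* (ENSMUSG00000025927, chr1:19208914-19238576, plus strand), an AP-2 factor of crest and facial mesenchyme, was 12.86, 14.02 and 12.45 FPKM in controls and 14.22, 10.31 and 11.39 in mutants. Mutants 2 and 3 were under all controls, and mutant 1 was above all of them. The log2 fold change was -0.13 (SE 0.12, 95% interval -0.42 to 0.16; exact permutation p = 0.50).

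Of the receptors, *Erbb3* (ENSMUSG00000018166, chr10:128567523-128589652, minus strand) holds a miRNA gene on its own strand. It was 6.69, 11.8 and 9.53 FPKM in controls and 7.74, 8.40 and 8.29 in mutants. The control samples were farther apart (9.35 ± 2.58, SD, n = 3) than the mutants (8.14 ± 0.351), and all mutants lay inside the range of the controls. Its fold change on the log2 scale was -0.15 (SE 0.18, 95% interval -0.57 to 0.27; exact permutation p = 0.70).

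*Ngfr* (ENSMUSG00000000120, chr11:95568818-95587735, minus strand) had the smallest p of the 8. It was 21.74, 25.15 and 21.04 FPKM in controls and 21.87, 19.60 and 17.96 in mutants. Mutants 2 and 3 were under all controls, but mutant 1 lay between controls 1 and 2. The mutant mean was 87.5% of the control mean, with a log2 fold change of -0.18 (SE 0.10, 95% interval -0.43 to 0.06; unadjusted p by limma 0.12; exact permutation p 0.30).

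Of the glial proteins, *Fabp7* (ENSMUSG00000019874, chr10:57784881-57788450, plus strand) was among the strong genes of the tissue, with rank 307 by mean FPKM. It was 253.1, 160.4 and 246.1 FPKM in controls and 249.7, 321.2 and 205.3 in mutants. Control 2 was the lowest sample and mutant 2 the highest, so that the same replicate number held both extremes. Controls averaged 219.9 ± 51.6 and mutants 258.7 ± 58.5 (SD, n = 3 each). Limma gave a log2 fold change of 0.24 (SE 0.22, 95% interval -0.29 to 0.77; exact permutation p = 0.50).

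*S100b* (ENSMUSG00000033208, chr10:76253853-76261159, plus strand) overlaps *Dip2a* on the other strand. The libraries were stranded, but the sources used here do not say whether strand was used in counting, so reads of the overlap are uncertain. *S100b* was 0.825, 1.55 and 1.03 FPKM in controls and 1.01, 1.25 and 0.633 in mutants, with control 2 the highest and mutant 3 the lowest. The log2 fold change was -0.12 (SE 0.17, 95% interval -0.51 to 0.28; exact permutation p = 0.50).

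**Figure D2:**
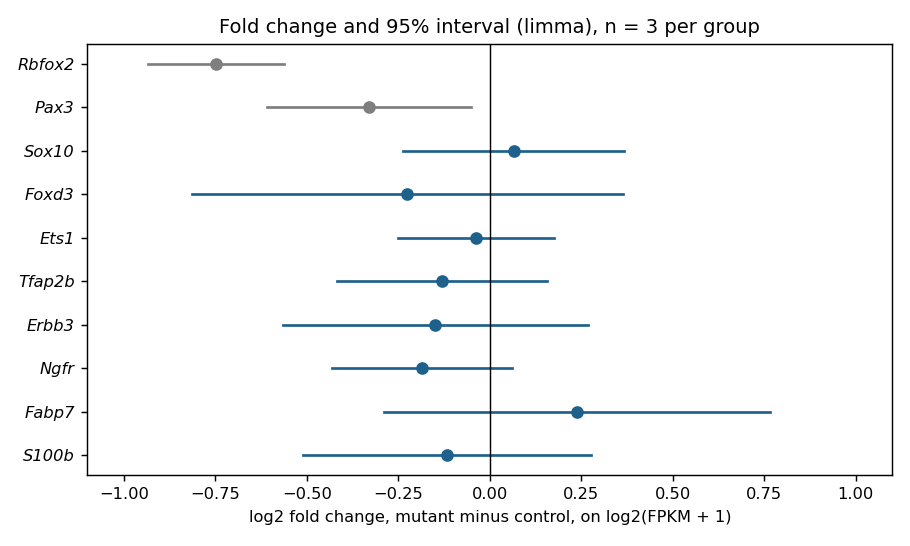
Log2 fold change of mutants over controls (horizontal axis, on log2(FPKM + 1); points) with 95% intervals from limma (lines), n = 3 per group, for the 8 genes and, in grey, for *Rbfox2* and *Pax3*. The intervals of all 8 genes include 0 and lie between -0.81 and 0.77, while that of *Rbfox2* is -0.94 to -0.56.

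The intervals give the range of fold changes on log2(FPKM + 1) around each estimate, and they do not measure the power of the test. In the main fit they lay inside a log2 change of 1 in either direction for all 8 genes. A decrease of 0.5 on the log2 scale was inside the interval of *Erbb3*, *Foxd3* and *S100b*, and an increase of 0.5 inside that of *Fabp7*. The pseudocount of 1 pulls the intervals of the low genes *Foxd3* and *S100b* towards 0. The bound of 1 did not hold in every fit. With the Y-linked genes as a covariate the interval of *Foxd3* reached -1.32, and on replicates 2 and 3 only that of *Fabp7* reached 1.12. The size of the fold change had a median of 0.14 over the 8 genes, and 0.05 over the 10061 genes and 0.06 over the 17826. The SE of the 8 genes ran from 0.09 (*Ets1*) to 0.25 (*Foxd3*). The median SE was 0.10 over the 10061 genes and 0.11 over the 17826. The median fold change over all genes was 0.01 and -0.00059, respectively.

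Differences between samples of the same replicate number varied in sign. In the first pair, 2 of the 8 genes were lower in the mutant (*Foxd3* and *Fabp7*), with differences from -0.09 to 0.29 on the log2 scale. In the second pair 7 genes were lower, by as much as 0.56 for *Foxd3*, and *Fabp7* was higher by 0.997. In the third pair 6 genes were lower, from -0.32 for *S100b* to 0.07 for *Sox10*. Only *Foxd3* had the same sign in all 3 pairs.

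**Figure D3:**
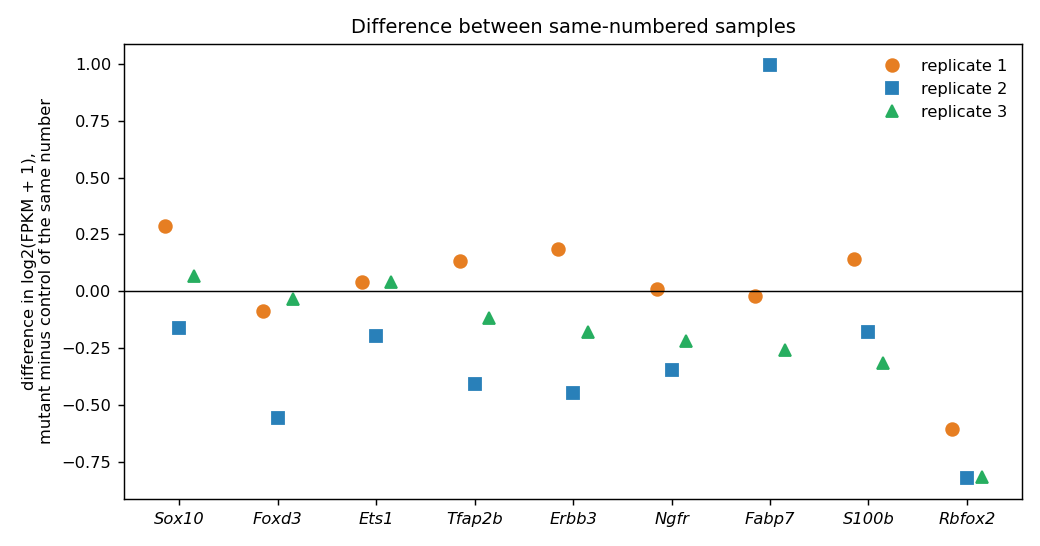
Difference in log2(FPKM + 1) between the mutant and the control of the same replicate number (vertical axis) for the 8 genes and *Rbfox2*; orange circles, blue squares and green triangles are replicates 1, 2 and 3. *Foxd3* alone of the 8 genes lies below 0 in all pairs, as *Rbfox2* does, and *Fabp7* spans from -0.26 to 0.997.

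Since the first replicates stood apart, the groups were also compared on replicates 2 and 3 alone, over the 17826 genes. There *Ngfr* was lower in mutants with a log2 fold change of -0.28 (SE 0.10, unadjusted p by limma 0.044), *Erbb3* with -0.32 (SE 0.12, 0.045) and *Tfap2b* with -0.26 (SE 0.10, 0.040). In the same fit 8.95% of all genes had an unadjusted p under 0.05, and the adjusted p of the 3 genes by limma was 0.56. The remaining 5 genes had unadjusted p between 0.13 and 0.75. With the replicate number as a block, 604 of the 10061 genes had an unadjusted p under 0.05, against 167 without it. None of the 6 genes tested there was among them, and the smallest p of the 6 was 0.065, for *Ngfr*. *Foxd3* and *S100b*, tested with the block over the 17826 genes, had unadjusted p of 0.14 and 0.36 by limma, where 1035 genes passed. Leaving out control 2 turned the fold changes of *Erbb3*, *S100b* and *Ets1* positive (0.022, 0.018 and 0.0029), as did leaving out mutant 3 for *S100b* (0.010) and mutant 2 for *Ets1* (0.00023). *Sox10* became negative without control 3 (-0.015) or mutant 1 (-0.028). None of these values had an unadjusted p under 0.05. The 0.24 of *Fabp7* became 0.028 without control 2 and 0.072 without mutant 2, and 0.39 without mutant 3. *Foxd3* went from -0.06 without control 1 to -0.46 without mutant 1. *Erbb3* had -0.35 without control 1 (unadjusted p 0.017 by limma, where 6.45% of the 10061 genes passed), and *Tfap2b* -0.25 without mutant 1 (0.037, where 4.10% passed). With the Y-linked genes as a covariate, the fold change became -0.06 for *Fabp7* and -0.10 for *Sox10*, each opposite in sign to that without it. That fit compares genotypes mainly through mutant 3, the only mutant with Y-linked values as low as the controls, and the part of embryo sex was not tested.

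Genes that act with these 8 had close means in the groups. The neuregulin co-receptor *Erbb2* had means of 21.8 FPKM in controls and 21.1 in mutants (log2 fold change -0.04, SE 0.12) and the ligand *Nrg1* 2.33 and 2.19 (-0.05, SE 0.14). *Sox9*, a SOX factor of early crest and cartilage, had 21.5 in both groups, and *Tfap2a*, the AP-2 partner of *Tfap2b*, 6.32 and 5.60 (-0.16, SE 0.14). *Sox2*, shared by glial precursors and brain progenitors, had 42.8 and 44.5 (0.12, SE 0.26).

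Wider lists of the same pathways were then counted. All counts for lists are over the 17826 genes, of which 443 (2.49%) had an unadjusted p under 0.05, 180 higher and 263 lower in mutants, and 0 passed the adjusted threshold. Of 16 Schwann cell precursor and myelin genes, 1 passed, *Serpine2*, a protease inhibitor, which was 48.9, 59.1 and 54.0 FPKM in controls and 49.1, 45.5 and 42.7 in mutants (log2 fold change -0.23, SE 0.09, unadjusted p by limma 0.044), with overlap at mutant 1. The list had a median of 0.03, and its strongest gene was *Gap43*, a growth cone protein also of neurons. Of 9 neuregulin and ErbB genes, 0 passed, and the median was -0.04. Of 10 neurotrophin genes, 1 passed, the ligand *Ntf5*. Controls had 2.04, 2.46 and 2.58 FPKM and mutants 1.83, 1.83 and 1.86 (log2 fold change -0.24, SE 0.10, unadjusted p 0.048 by limma), and the median of the list was -0.01. All mutants were under all controls for *Ntf5*, and the strongest gene of that list was *Maged1*, which encodes a protein that binds NGFR.

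Of 17 neural crest regulators, 1 passed, *Pax3* itself, and the strongest was *Id3*. *Pax3* (ENSMUSG00000004872) was 8.83, 11.9 and 11.1 FPKM in controls and 8.62, 7.59 and 8.36 in mutants, so that every mutant lay under every control (log2 fold change -0.33, SE 0.12, unadjusted p by limma 0.030). The gene carries the Cre insertion on 1 allele in mutants. The median over the list was -0.04, and 11 of its 17 genes had a negative fold change. Melanoblasts, the precursors of pigment cells, also need *Sox10*. Of 8 melanoblast genes, 0 passed and the median was -0.08, and the strongest was *Ednrb*.

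Several of the 8 genes are shared with other cell types, and the lists of those cells moved between samples. Of 10 genes of radial glia and forebrain progenitors, 0 passed, but their summed FPKM ran from 208 to 364 in controls and from 278 to 336 in mutants. Control 2, the lowest sample for *Fabp7*, was also the lowest for this sum. The part of brain tissue in the *Fabp7* values was not tested, and none of the list was absent from any sample. The 10 endothelial genes, relevant to *Ets1*, summed to 113 to 150 FPKM in controls and 119 to 135 in mutants, and 0 passed. Of 12 genes of cranial ganglion neurons, 1 passed, *Tubb3*, a neuronal tubulin. Controls had 392, 322 and 366 FPKM of it and mutants 402, 498 and 466 (log2 fold change 0.34, SE 0.12, unadjusted p 0.029 by limma). The summed FPKM of that list, to which *Tubb3* gave the most, was 665 to 701 in controls and 750 to 821 in mutants, with no overlap. Without *Tubb3* the sum was 301 to 342 in controls and 324 to 348 in mutants, which overlapped. *Prph*, an intermediate filament gene of peripheral neurons named after its values were seen, went the other way, with a log2 fold change of -0.41 (SE 0.18, unadjusted p 0.055 by limma) and groups that did not overlap. For the whole list the median log2 fold change was 0.13, with 3 of 12 negative.

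The remaining lists describe the dissection. Genes of facial mesenchyme were present in every sample, with a summed FPKM of 653 to 933 in controls and 679 to 742 in mutants, as the label of the tissue says. Of these 10 genes, 1 passed, the collagen gene *Col1a1* (log2 fold change -0.42, SE 0.17). It was 135, 162 and 123 FPKM in controls and 113, 121 and 82.1 in mutants. The fold change was negative for 9 of the 10, with a median of -0.10, against -0.00059 over the 17826 genes. The median difference of the list was 0.12 in the first pair and -0.24 over replicates 2 and 3. Of 6 otic epithelium genes, 1 passed, *Oc90*, which encodes a protein of ear crystals. Controls had 0.0829, 5.04 and 0.0631 FPKM of it and mutants 25.4, 10.2 and 8.38 (log2 fold change 2.88, SE 0.72). Mutant 1, the highest sample for *Sox10*, also had the highest summed FPKM of the otic list. That sum was 48.4 there and 11.2 to 24.5 in the other samples. Below mutant 1 the order was not shared. Control 2, the next highest for *Sox10* (11.96 FPKM), had an otic sum of 14.2, and mutant 2, with 10.57 FPKM of *Sox10*, had 24.5. The part of otic tissue in the *Sox10* values was not tested. None of 5 erythroid genes (summed FPKM 4617 to 9395 in controls and 6277 to 9783 in mutants) and none of 7 epithelial genes (99.1 to 160 and 101 to 130) passed. Adjusted p-values by limma were 1.0 for every gene named here from the lists. The strongest genes by mean FPKM were *Nes* for radial glia, *Cdh5* for endothelium and *Col3a1* for mesenchyme. In the otic, erythroid and epithelial lists they were *Otx1*, *Hbb-y* and *Krt5*. *Otx1* was highest in control 1 (18.6 FPKM), where *Oc90* was 0.0829, so the 2 genes did not follow each other. *Otx1* was lowest in control 2 (4.90 FPKM). The sum of the radial glia and forebrain list was also highest in control 1 (364) and lowest in control 2 (208). The part of brain tissue in the otic sum was not tested. Most of the single calls were lost when 1 sample was left out. Without control 2, 0 genes passed in the Schwann cell precursor, neurotrophin, neural crest, ganglion neuron and mesenchyme lists, and without control 1 these lists had 3, 2, 3, 5 and 1 passing genes. Over all 17826 genes, 1.45% passed without control 2 and 6.79% without control 1. The otic list kept 1 or 2 passing genes whichever sample was left out.

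**Figure D4:**
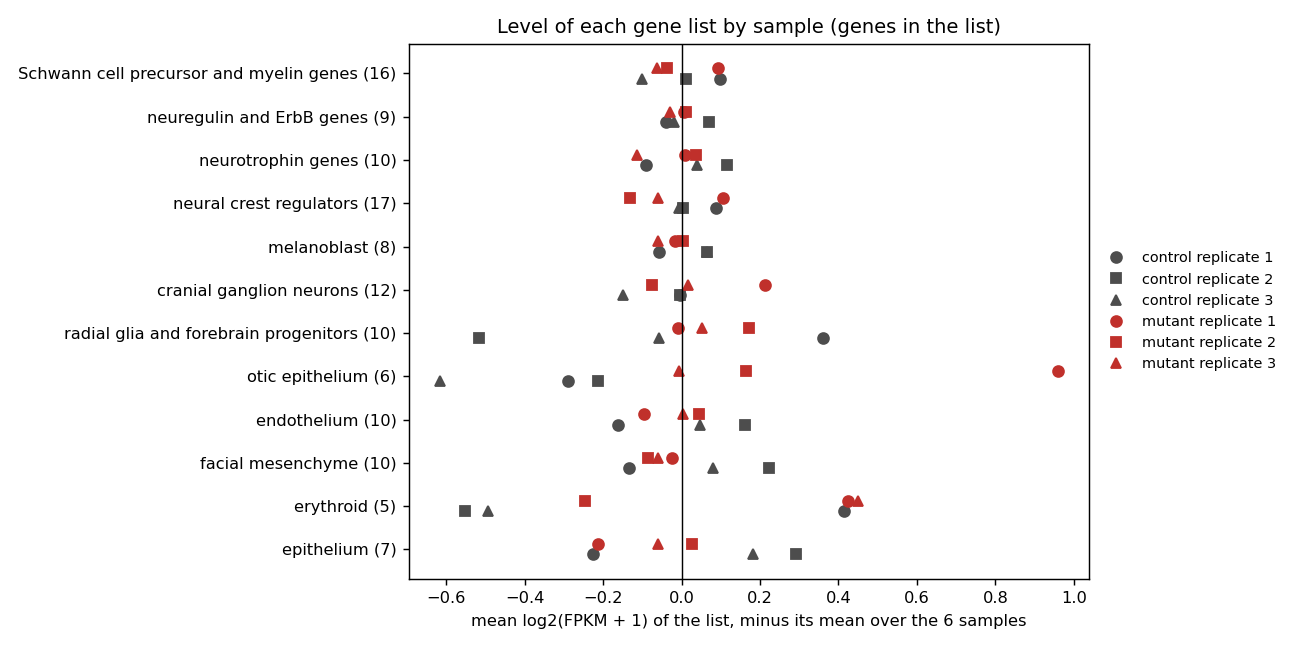
Mean log2(FPKM + 1) of each gene list in each sample, minus the mean of the list over the 6 samples (horizontal axis); grey is control, red is mutant, symbols are replicate numbers and numbers in brackets are genes tested. The Schwann cell precursor list stays near 0 in all samples, as do the neuregulin and ErbB list and the melanoblast list. The radial glia, otic and erythroid lists spread widely.

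The 8 genes did not keep fixed proportions. *Sox10* over *Erbb3* ranged from 0.956 in control 3 to 1.61 in mutant 1, *Sox10* over *Foxd3* from 4.53 in control 1 to 13.6 in mutant 2, and *Fabp7* over *Sox10* from 13.4 in control 2 to 30.4 in mutant 2. Genotype and the split of the first replicates can both enter correlations over the 6 samples. Over these samples the log2 values of *Sox10* had a Pearson r of 0.77 with *Ets1*, 0.60 with *Ngfr* and 0.57 with *Tfap2b*. The r was 0.55 with *S100b* and 0.53 with *Foxd3*, but 0.21 with the SOX10 target *Erbb3* and -0.25 with *Fabp7*. Among 13714 genes with a mean FPKM over 1, the 10 with the highest r with *Sox10* were *Tmeff2* (0.98), *Ankrd29*, *Sla*, *Galt*, *Ahdc1*, *Necap1*, *Cc2d1b*, *Rbm46*, *Tnfrsf10b* and *Gm12276* (0.94). None of the 8 genes or of the lists above was among them. With 6 samples and so many genes, high values of r arise without any relation, and they are given as a description.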

How the data were processed

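The authors prepared stranded poly(A)+ libraries from 3 control and 3 mutant samples, aligned paired-end reads to GRCm38 with STAR and deposited FPKM values per gene. The submitters' processing notes name FastQC 0.11.4, STAR and Cuffdiff. The annotation and the counting step are not given in the sources used here. The table of all samples and the 6 tables of single samples held the same values (0 differences). Groups and replicate numbers came from the labels.

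From these values, log2(FPKM + 1) of all 6 samples was fitted by limma (version 3.58.1, R 4.3.3, intensity trend, no covariate), with Benjamini-Hochberg adjustment over the tested genes, either the 10061 with FPKM over 5 in all samples of a group or the 17826 with a mean FPKM over 0.1. Single genes were also compared by exact two-sided permutation tests in SciPy 1.17.1. P-values measure the spread between these samples. Coordinates are from GENCODE for GRCm38, which held 95.0% of the identifiers. The code was tested on simulated data.

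Deviations from the group means correlated, across genes, at 0.64, 0.26 and 0.51 between samples of the same number, at 0.23 and 0.40 between replicates 2 and 3 of opposite groups, and at -0.68 to -0.37 where a first replicate met another. Deviations sum to 0 within a group, so the positive value between the first replicates by itself pulls their values with the others below 0. The negative values are therefore no separate sign of pairing. The numbers were taken to pair the samples on these correlations alone, since no label ties them to litters. Mutant 2 correlated more with control 3 (0.40) than with control 2 (0.26). The values thus set the first replicates apart but do not settle how replicates 2 and 3 pair. Named genes are the 8 genes, their partners, the list genes with an unadjusted p under 0.05, the strongest gene of a list, the 10 most like *Sox10*, *Rbfox2* and *Pax3*. Values of 2 partners are not reported here. The genes, lists and rules were chosen with earlier results of these data known. Alternatives were pseudocount 0.1, 2 scalings, other filters, no trend, the block, a term for the first replicates, the Y-linked covariate, replicates 2 and 3 only, and each sample left out.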

Additional observations from a re-analysis of the deposited data

How the results depend on the processing

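Under 16 alternatives the 8 genes gave 126 fold changes (an FPKM filter of 1 left out *Foxd3* and *S100b*). None passed an adjusted p of 0.05, 5 had an unadjusted p under 0.05 (*Ngfr*, *Erbb3* and *Tfap2b* on replicates 2 and 3 only, *Erbb3* without control 1 and *Tfap2b* without mutant 1), and 10 changed sign. *Foxd3*, *Ngfr* and *Tfap2b* stayed negative throughout, at -0.46 to -0.06, -0.32 to -0.11 and -0.26 to -0.04. The Y-linked covariate gave -0.10 for *Sox10* and -0.065 for *Fabp7*, and replicates 2 and 3 only gave -0.047 for *Sox10*. Leaving out 1 sample gave a log2 fold change of -0.028 (without mutant 1) to 0.16 (without control 2) for *Sox10*, -0.35 (without control 1) to 0.022 (without control 2) for *Erbb3*, 0.028 (without control 2) to 0.39 (without mutant 3) for *Fabp7*, -0.22 (without control 1) to 0.018 (without control 2) for *S100b* and -0.095 (without control 3) to 0.0029 (without control 2) for *Ets1*. Over the 10061 genes, the adjusted count of 0 became 3 with a term for the first replicates, 4 on replicates 2 and 3 only, and 0 to 1 when a sample was left out (1 without mutant 3). Over the 17826 genes, the adjusted count of 0 became 5 with the Y-linked covariate, 2 without control 1 and 6 without mutant 3. The unadjusted count of 167 became 604 with the replicate block, 611 with the term for the first replicates, 1103 on replicates 2 and 3 only, 304 with an FPKM filter of 1, 663 with no filter, and 78 (without control 2) to 649 (without control 1) when a sample was left out, with 413 without mutant 1 and 108 without mutant 2. The cause was not tested. The block changed no call among the 8 genes. No read counts were given, so counting error at the low values of *Foxd3* and *S100b* is unknown.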
